A study of Mus musculus with 26 samples.

Results

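Ahnak, Zfp385a, Lrrc32, Syndig1l, Ceacam1, Pgap1, Tldc1 and Pear1 are 8 genes whose RNA was higher in cultured mouse pro-B cells after knockdown of Brg1. They are 8 of the 17846 genes listed in both RNA-seq tables of the series, which hold 19719 genes for knockdown and 19404 for deletion of Brg1. The genes were chosen by their values. Ahnak to Pgap1 in the order above, 6 genes, were chosen as large rises on knockdown. The other 2, Tldc1 and Pear1, were chosen as rises in both experiments. Both contrasts were used in that choice, so the fold changes and adjusted p values of the 8 genes are a description and support nothing.

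Brg1, encoded by Smarca4, is a DNA-dependent ATPase of the SWI/SNF complexes, which slide or evict nucleosomes and so change which regulatory DNA is accessible. Pro-B cells are B lineage precursors of the bone marrow that rearrange the immunoglobulin heavy chain locus and grow in response to IL7. SWI/SNF complexes are known both to open enhancers of the B lineage and to take part in keeping other genes at low levels, so a gene may fall or rise when Brg1 is lost.

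All cells were B220+ bone marrow cells grown for 7 days with IL7 and SCF, the cytokines that sustain pro-B cells. In the deletion experiment, cells from C57/Bl6 mice with the genotype Brg1+/+ x ER-Cre (control, 2 libraries) or Brg1F/F x ER-Cre (Brg1-deleted, 2 libraries) all received 0.3 µM tamoxifen during the last 60 hours, so the controls also carry active Cre. In the knockdown experiment, retrovirus with Ctrl-sh (3 libraries) or Brg1-sh (3 libraries) was given on days 3 and 4 to Rag1-/- cells, which lack V(D)J recombination, and infected cells were enriched on hCD25 magnetic beads. These 10 RNA libraries are part of 26 samples, and the other 16 were not analysed here. The labels give no age, and they do not tie libraries to individual mice, so the authors' p values may measure technical spread only.

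Smarca4 itself, the targeted gene, was 1.98-fold lower on knockdown in the authors' deposited table, from a mean of 13340 to 6743 normalized reads (adjusted p = 0.0472). On deletion it was 2.95-fold lower, from 17898 to 6067 (adjusted p = 0.0008). A normalized read is a read divided by the size factor of its library, and each group has 1 deposited mean. All 16 of the 16 pro-B markers looked for, such as Pax5 and Vpreb1, were listed in both tables. Cd79b, a chain of the B cell receptor, was the 1 of them called, higher on deletion from 8045 to 20542 (adjusted p = 0.0106 in the authors' deposited table). Of all genes, 0.732% were called higher on deletion. In the deletion table most means could be split into a single set of whole reads per library. More than 1 split was possible for 842 control and 575 Brg1-deleted values. For these, the totals assume the split with the most equal normalized reads. On that assumption the totals were 10766906 and 10214072 reads for the controls and 11569352 and 8797520 for the Brg1-deleted libraries. These libraries carry no replicate number and are called the deeper and the shallower library of their group. In the knockdown table only relative depths could be recovered, and the shallowest control had 0.495 of the depth of the deepest.

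Where RefSeq gave a promoter, its sequence is shown first, since chromatin remodelling acts on regulatory DNA. Windows of 300 bases, from 250 before to 50 after the start of transcription, were found for 5 of the 8 genes, with 6 windows in all because Zfp385a has a pair of starts (RefSeq, GRCm38.p6). Lrrc32, Syndig1l and Tldc1 had none in the table. The windows shown are those of Ahnak, the gene with the highest fold on knockdown, and of Ceacam1 and Pear1, the pair with the lowest and the highest GC content. They lie at chr19:8989034-8989333 on the plus strand and at chr7:25477576-25477875 and chr3:87768904-87769203 on the minus strand, and each is written 5′ to 3′ along its gene. The windows of Ahnak and Ceacam1 lie at the start of the gene as deposited. That of Pear1 lies inside the deposited span, chr3:87747890-87824306, and not at its upstream end. Capitals mark GGGAA or its complement TTCCC, the core bound by Ikaros, a zinc finger factor of lymphocyte development.
Ahnak: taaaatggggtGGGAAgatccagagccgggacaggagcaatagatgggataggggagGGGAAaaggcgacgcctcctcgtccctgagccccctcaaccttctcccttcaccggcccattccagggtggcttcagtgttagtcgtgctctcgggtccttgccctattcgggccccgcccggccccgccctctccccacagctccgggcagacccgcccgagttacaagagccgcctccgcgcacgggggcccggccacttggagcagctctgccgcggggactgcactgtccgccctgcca
Ceacam1: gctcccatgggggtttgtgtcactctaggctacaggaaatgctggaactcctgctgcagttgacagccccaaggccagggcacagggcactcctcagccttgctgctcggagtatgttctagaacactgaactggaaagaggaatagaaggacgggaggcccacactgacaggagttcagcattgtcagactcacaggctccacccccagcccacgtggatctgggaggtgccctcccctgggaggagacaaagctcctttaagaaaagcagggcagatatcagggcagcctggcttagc
Pear1: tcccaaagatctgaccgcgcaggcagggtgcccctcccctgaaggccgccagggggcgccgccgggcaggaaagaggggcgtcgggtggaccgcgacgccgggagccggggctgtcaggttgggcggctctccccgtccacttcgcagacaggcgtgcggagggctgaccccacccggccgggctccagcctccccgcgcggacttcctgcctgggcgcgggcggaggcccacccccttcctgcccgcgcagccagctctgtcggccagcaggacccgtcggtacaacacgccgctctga

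The windows were of different kinds. The Ahnak window held 22 CpG dinucleotides at 67.3% GC, that of Pear1 33 at 75.0%, and that of Pgap1 26 at 69.3%. The upstream Zfp385a window held 23 at 70.0%. The Ceacam1 window held 3 at 57.3% and the second Zfp385a window 2 at 62.3%. Over all 32851 RefSeq windows the medians were 7.00 CpG and 52.7% GC, so 4 of the 6 windows lay above the upper quartile of 20.0 CpG, between the 76.9th and the 91.4th, and the other 2 at the 23.3rd and the 14.1st. GGGAA, counted on both strands, was in 4 of the 6 windows and in 62.7% of all windows. It was found 2 times in the Ahnak window and 0 times in those of Ceacam1 and Pear1. GGGCGG, the GC box of the Sp1 and KLF factors, was in 5 of the 6 windows and in 35.7% of all. Ceacam1 alone lacked it. Ceacam1 alone held CACGTG, the E-box of Myc (7.15% of all windows). CCCNNGGG, the core of EBF1, was in 2 of the 6 (13.7% of all). No window held TGANTCA (AP-1), TGTGGT (RUNX) or TATAAA (the TATA box), which were in 7.81%, 16.8% and 13.6% of all windows. A match of letters is a description, not a binding site.

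On knockdown, the adjusted p of the authors' deposited table was under 0.05 for 8 of the 8 genes, all higher, where 0.177% of all genes were called higher and 0.0406% lower. On deletion, 2 of the 8, Tldc1 and Pear1, were called higher, against 0.732% of all genes called higher and 0.742% lower. These 2 are among 5 genes called higher in both experiments, 0.0280% of the genes listed in both. Nothing can be read from these counts, since they made the choice. Folds ran from 3.00 to 6.51 on knockdown and from 2.69 to 6.15 on deletion. The median log2 fold change of the 8 genes was 2.06 and 2.15, and that of all listed genes was -0.00 in both tables. The plot of group means shows the 8 genes in both experiments.

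**Figure D1:**
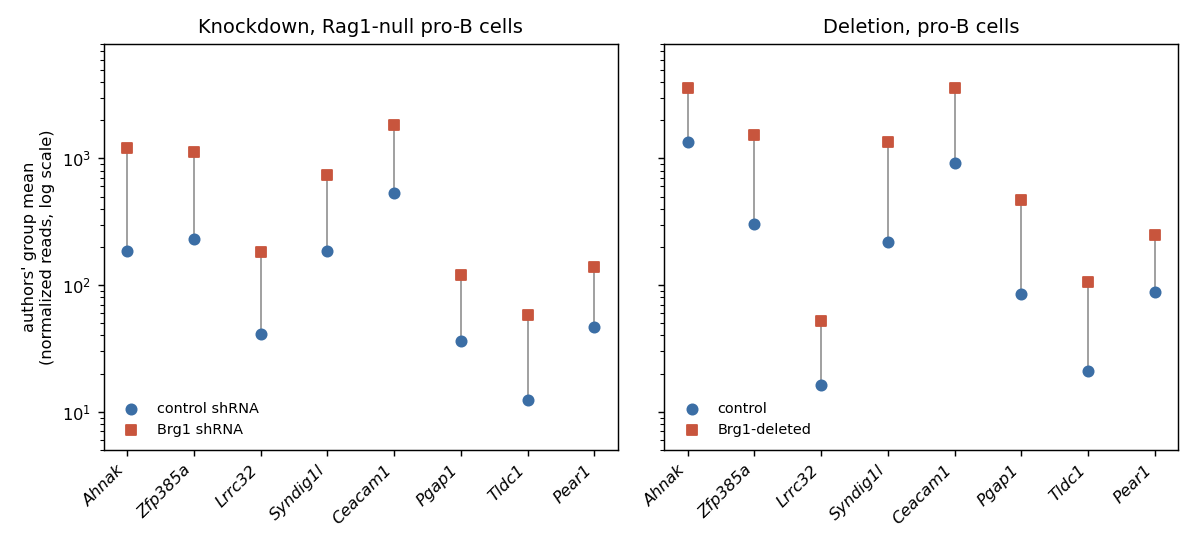
Authors' mean normalized reads per group (vertical axis, log scale) for the 8 genes, with controls as circles and Brg1-depleted groups as squares, and no error because each group has 1 deposited mean. Each square lies above its circle, by 3.00-fold (Pear1) to 6.51-fold (Ahnak) on knockdown and by 2.69-fold (Ahnak) to 6.15-fold (Syndig1l) on deletion.

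Ahnak (ENSMUSG00000069833, chr19:8989284-9076919, plus strand, mm10) encodes a giant scaffold protein that links the plasma membrane to the actin cytoskeleton and binds calcium channel subunits. Its mean was 185 with control shRNA and 1205 with Brg1 shRNA, 6.51-fold higher (adjusted p = 0.0003 in the authors' deposited table). On deletion the means were 1338 and 3595, a ratio of 2.69 that did not pass (adjusted p = 1). The control libraries of the deletion experiment read 442 and 2234, so they differed from each other by 5.06-fold, a gap reached by 1.98% of the resolved genes whose mean was 10 or more. For the Brg1-deleted libraries the mean allowed a pair of readings, either 2277 and 4912, or 6458 and 731, in the order deeper and shallower. Under the first both Brg1-deleted libraries lie above both controls, the lower of them by a small margin, and under the second the groups overlap.

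Zfp385a (chr15:103313895-103340086, minus strand) encodes a zinc finger protein known as a cofactor of p53 and as a binder of RNA. Its mean was 233 with control shRNA and 1132 with Brg1 shRNA, 4.86-fold higher (adjusted p = 0.0365 in the authors' deposited table). On deletion the controls read 186 and 422 and the Brg1-deleted libraries 2087 and 952, in the order deeper and shallower. The lower Brg1-deleted library was above the higher control, but the libraries of each group differed by more than 2-fold (2.27 and 2.19), and the deposited ratio of 4.99 had an adjusted p of 0.3408.

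Syndig1l (chr12:84677278-84698807, minus strand) encodes a membrane protein related to SynDIG1, a protein of excitatory synapses. Its mean rose from 186 to 736 on knockdown, 3.95-fold (adjusted p = 0.0396 in the authors' deposited table). On deletion the controls read 196 and 243, close to each other, and the Brg1-deleted libraries 868 and 1834. The groups were far apart, and the deposited ratio of 6.15, the highest of the 8 on deletion, had an adjusted p of 0.2403.

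Lrrc32 (chr7:98494222-98501831, plus strand) encodes GARP, which holds latent TGF-beta at the cell surface and is best known from regulatory T cells and platelets. Its mean was 41.3 with control shRNA and 182 with Brg1 shRNA, 4.41-fold higher (adjusted p = 0.0033 in the authors' deposited table). On deletion the controls read 13.7 and 19.0 and the Brg1-deleted libraries 70.0 and 33.7. The groups did not overlap, at the lowest level of the 8 genes on deletion, and the deposited ratio of 3.17 had an adjusted p of 0.5503.

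Ceacam1 (chr7:25461702-25477625, minus strand) encodes an adhesion receptor of the immunoglobulin superfamily whose cytoplasmic tail can carry inhibitory signals in lymphocytes. Its mean was 529 with control shRNA and 1827 with Brg1 shRNA, 3.45-fold higher (adjusted p = 0.002 in the authors' deposited table). On deletion the controls read 550 and 1279, and the Brg1-deleted mean allowed either 1882 and 5310 or 6062 and 1129. The groups overlap under the second reading only, and the deposited ratio of 3.93 had an adjusted p of 1.

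Pgap1 (chr1:54473000-54557684, minus strand) encodes the deacylase of the endoplasmic reticulum that remodels GPI anchors, the lipid tethers of many surface proteins. Its mean was 36.4 with control shRNA and 120 with Brg1 shRNA, 3.31-fold higher (adjusted p = 0.0203 in the authors' deposited table). The deletion controls read 72.2 and 97.1 and the Brg1-deleted libraries 637 and 300. The groups were well separated, with a deposited ratio of 5.54 and an adjusted p of 0.2322.

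Tldc1 (chr8:119760587-119778416, minus strand) encodes a TLDc domain protein linked to mTOR signalling at the lysosome. Its mean was 12.3 with control shRNA and 58.4 with Brg1 shRNA, 4.76-fold higher (adjusted p = 0.0101 in the authors' deposited table). It was the only one of the 8 genes whose control mean on knockdown could be split into a single set of values. These were 14.4, 12.3 and 10.2, and all 3 are close. Its Brg1 shRNA mean allowed 7 readings. They included 64.6, 51.6 and 59.1 as well as 93.5, 0 and 81.9, in the order deepest, middle and shallowest. In the deletion experiment the controls read 12.7 and 29.0 and the Brg1-deleted libraries 111 and 98.8, a deposited ratio of 5.02 (adjusted p = 0.0058). The controls differed by 2.29-fold and the Brg1-deleted libraries by 1.12-fold.

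Pear1 (chr3:87747890-87824306, minus strand) encodes a receptor with EGF-like repeats that is known for its part in platelet contacts. Its mean was 46.3 with control shRNA and 139 with Brg1 shRNA, 3.00-fold higher (adjusted p = 0.0134 in the authors' deposited table). On deletion the controls read 67.3 and 110 and the Brg1-deleted libraries 243 and 256, a deposited ratio of 2.81 (adjusted p = 0.0329). The Brg1-deleted libraries were nearly equal and both above the controls. Pear1 is the only one of the 8 genes that overlaps other listed genes, among them Lrrc71 on its own strand and Insrr on the other, whose means were between 0.563 and 5.05. The deposited tables flag it as confounded, a word left undefined in the sources used here and set for 47.1% of deletion and 47.3% of knockdown genes.

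**Figure D2:**
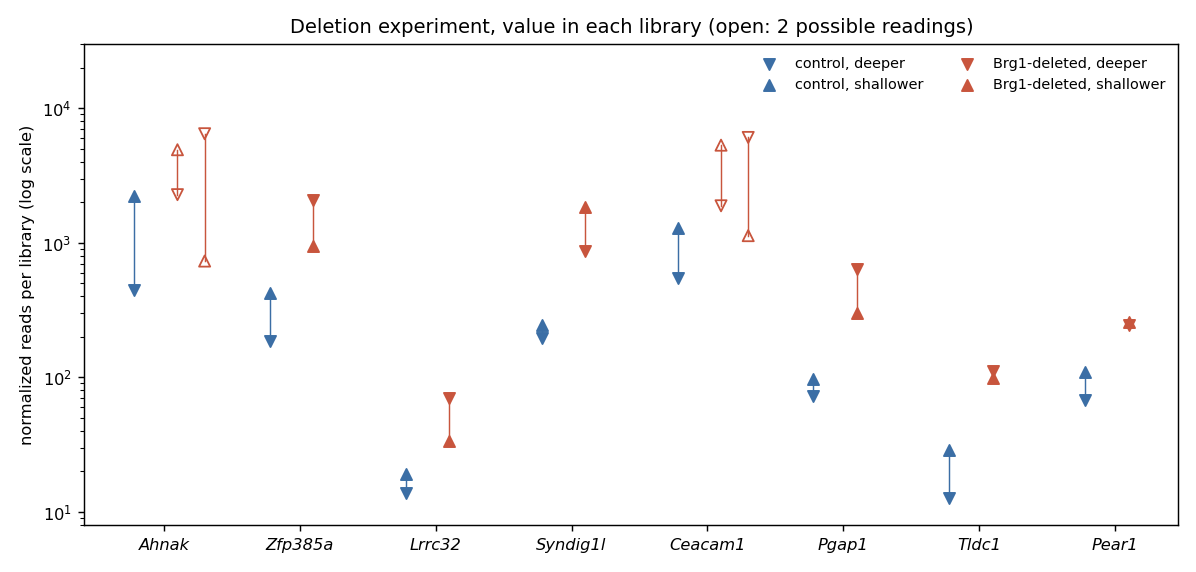
Normalized reads in each library of the deletion experiment (vertical axis, log scale) for the 8 genes, with downward triangles for the deeper and upward triangles for the shallower library of a group, and open triangles where the group mean allows 2 readings. In the 6 genes with filled triangles both Brg1-deleted libraries lie above both controls, and in Ahnak and Ceacam1 this holds under 1 of the 2 readings.

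In the 6 genes with a single reading, 6 of 6 had both Brg1-deleted libraries above both controls, where 24.6% of 16867 resolved genes did so. The choice used this contrast, so nothing is read from the count. By limma on the recovered reads, 0 of the 6 genes passed an adjusted p of 0.05 without pairing and with libraries matched deeper to deeper. All 6 passed with the deeper control matched to the shallower Brg1-deleted library, where 8.23% of the 16867 genes were called higher. The labels give no pairing. Within groups, the shallower control was the higher control in 8 of the 8 genes. Among the Brg1-deleted libraries the deeper was the higher in 4 of the 6 resolved genes (Zfp385a, Lrrc32, Pgap1 and Tldc1), and the shallower in Syndig1l and Pear1. The shares of all resolved genes with these orders were not computed, so nothing is read from the counts. The gap between control libraries ran from 1.24-fold in Syndig1l to 5.06-fold in Ahnak, where the median over resolved genes at a mean of 10 or more was 1.23-fold. The gap between Brg1-deleted libraries ran from 1.05-fold in Pear1 to 2.19-fold in Zfp385a among the resolved genes, against a median of 1.25-fold.

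Markers of other cells also differed between these libraries. In the deeper and shallower control and the deeper and shallower Brg1-deleted library, the 9 resolved mature B cell markers summed to 647, 3249, 7673 and 1271. Only 5 of the 16 pro-B markers were resolved, with sums of 5490, 3553, 1466 and 5010. The 8 mast cell and basophil markers summed to 247, 763, 816 and 254, and 5 plasmacytoid dendritic cell markers to 265, 566, 841 and 357. The 17 resolved myeloid markers had another order, 2565, 3910, 2111 and 1384. In Zfp385a, Lrrc32, Pgap1 and Tldc1 the shallower control was above the deeper, and the deeper Brg1-deleted library was on top. The shallower Brg1-deleted library was above both controls in these genes, and its mature B marker sum of 1271 lay between theirs. Whether the orders of genes and markers are related was not tested. Of the 11 mature B markers listed, 2 were called higher on knockdown (Ms4a1 and Cd55) and 0 on deletion, with summed group means of 7900 and 11641 on knockdown and 8672 and 21445 on deletion. Of all genes, 0.177% were called higher and 0.0406% lower on knockdown, and 0.732% and 0.742% on deletion. Myeloid markers summed to 610 and 627 on knockdown, and to 9101 and 4692 on deletion, where 4 of 19 were called lower (Prtn3, Ctsg, Elane and Ly6c2). Markers of megakaryocytes and platelets, cells that express Pear1 and Lrrc32, summed to 113 and 139 on knockdown and to 567 and 573 on deletion, with 0 of 13 called in either. T cell markers summed to 809 and 796 on knockdown, where Cd3e and Ctla4 were not listed, and to 979 and 624 on deletion, where Lck and Thy1 were called lower. Of 8 endothelial markers Egfl7 was called lower on deletion, from 56.7 to 8.99 (adjusted p = 0.0187 in the authors' deposited table). The part of these cells in the values of the 8 genes was not tested. In bulk RNA, more cells of a type and more RNA per cell cannot be told apart.

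Levels were compared across the 4 groups as normalized reads per kilobase of exon, scaled so that all listed genes of a group sum to 1000000. The tables were normalized separately, so no test was made across them. In 7 of the 8 genes the order was the same, from Rag1-/- control through pro-B control and Brg1 shRNA to the Brg1-deleted cells. Ceacam1 was at 41.3, 65.0, 153 and 272 in that order, Zfp385a at 29.6, 35.3, 155 and 187, and Syndig1l at 21.7, 23.3, 92.3 and 153. These were the most abundant of the 8 genes per length in both controls. Ahnak, with its exons of 18543 bases, was at 2.91, 19.1, 20.4 and 54.7. Its pro-B control and Brg1 shRNA levels were thus side by side, within the 5.06-fold gap between the pro-B controls. The lower levels were those of Tldc1 at 1.39, 2.15, 7.12 and 11.5, Pear1 at 1.99, 3.47, 6.42 and 10.4, and Pgap1 at 1.00, 2.12, 3.57 and 12.5. Lrrc32 alone had another order, 1.14 in pro-B controls, 3.16 in Rag1-/- controls, 3.84 in Brg1-deleted cells and 15.0 with Brg1 shRNA.

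The level in control cells differed between the experiments for some of the 8 genes. The pro-B control level over the Rag1-/- control level was above 1 in 7 of the 8 genes. It ran from 0.360 (Lrrc32) to 6.58 (Ahnak). Over 11953 genes its median was 1.09, so a ratio above 1 was common, and the 5th and 95th percentiles were 0.733 and 1.92. Lrrc32, Ahnak and Pgap1 (2.12) lay outside that range. Zfp385a, Syndig1l, Ceacam1, Tldc1 and Pear1 lay within it, from 1.07 (Syndig1l) to 1.74 (Pear1). In 4 of the 8 genes, Ahnak, Lrrc32, Pgap1 and Pear1, the controls differed by more than the 2 pro-B control libraries did from each other, and in the other 4 by less. For the Rag1-/- groups the spread between libraries is not settled, except for Tldc1 with control shRNA. The control means of Lrrc32 and Pgap1 allowed 2 readings each, and that of Pear1 allowed 3. In the order deepest, middle and shallowest, Lrrc32 was at 12.7, 31.1 and 80.2 or at 43.9, 25.4 and 54.6. The readings of Pear1 included 16.9, 117 and 5.12 as well as 49.8, 48.1 and 41.0. Higher means were not split. Genotype, virus, tamoxifen and table differ together here and cannot be told apart.

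The fold was the larger on deletion in 5 of the 8 genes (Syndig1l, Pgap1, Tldc1, Zfp385a and Ceacam1) and the larger on knockdown in the other 3 (Ahnak, Lrrc32 and Pear1). Zfp385a and Tldc1 were nearly equal in both, at log2 fold changes of 2.28 and 2.32 for Zfp385a and 2.25 and 2.33 for Tldc1. Ahnak was the least equal, at 2.70 on knockdown and 1.43 on deletion. These differences were not tested. The other genes with strong knockdown rises lay on the same side: 48 of 11529 genes at a mean of 10 or more in each group had a knockdown log2 fold change of 1.59 or more, the lowest of the 8. Of the 40 that are not among the 8 genes, 38 were above 0 on deletion, where 49.3% of all 11529 genes were. The plot of both experiments shows them.

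**Figure D3:**
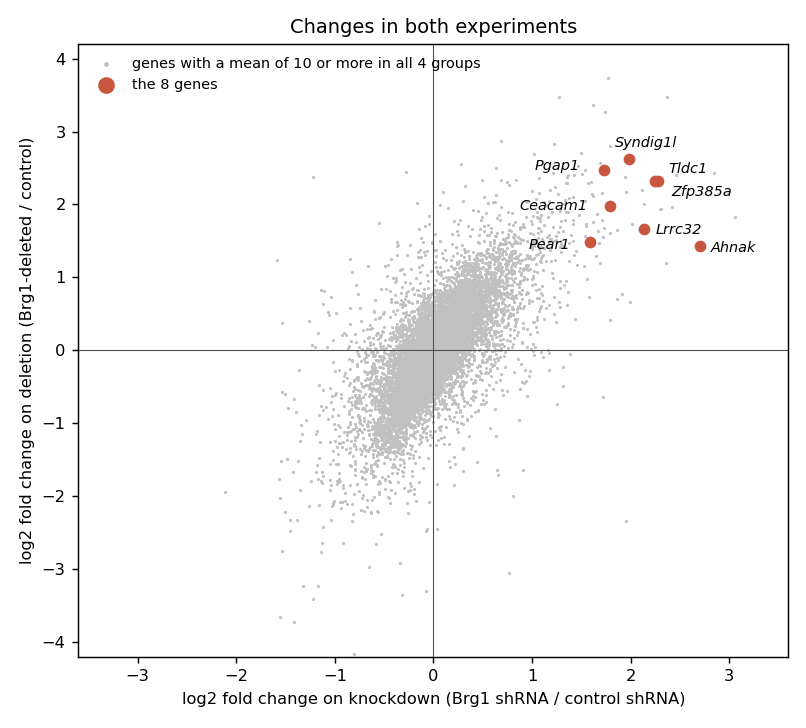
Log2 fold change on knockdown (horizontal axis) against that on deletion (vertical axis) in the authors' deposited tables, for 11526 genes at a mean of 10 or more in all 4 groups (grey; 3 more lie outside the axes) and for the 8 genes (red, named). The 8 genes lie at the upper right by choice, from 1.59 (Pear1) to 2.70 (Ahnak) on knockdown and from 1.43 (Ahnak) to 2.62 (Syndig1l) on deletion.

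The choice was not sharp at its edges, and it left out the largest knockdown rises. Among 30 called knockdown rises above the median level, ordered by fold, 5 of the first 11 are not among the 8 genes. The level here is the mean over both groups, with a median of 49.0. Lrrc32, Pgap1 and Pear1 were above it only through the Brg1 shRNA group, since their control means were 41.3, 36.4 and 46.3. Ngfr at 9.53-fold, Ncf1 at 8.33-fold and Pfn2 at 7.18-fold lay above Ahnak, and Gm15987 at 5.13-fold and Pdlim2 at 3.85-fold lay between the chosen genes, as named here after their values were seen. Pgap1 stood at position 11 with 3.31-fold, and the next below were 4930458D05Rik with 3.23-fold and Lifr, a cytokine receptor chain, with 3.20-fold. Among rises called in both, Pear1 was the last inside, with the larger of its adjusted p values at 0.0329, and the next outside were Arhgef12 at 0.0544 and Rgs9 at 0.0599. The genes with the most similar pair of log2 fold changes, of 10370 compared by distance over the 2 values and with the 8 genes themselves left out, were Klf3 (0.09) and Lifr (0.09) for Pear1, Smpd3 (0.11) and Ifnlr1 (0.19) for Pgap1, and March1 (0.14) and Padi2 (0.28) for Lrrc32. Syndig1l was nearest to Pdlim2 (0.15) and Rhobtb2 (0.25), and Ceacam1 to Clec2i (0.17) and Angptl1 (0.19). Mfhas1 and Irak2 were nearest to both Zfp385a (0.20 and 0.21) and Tldc1 (0.22 and 0.19). Ahnak had no close neighbour, with Ncf1 at 0.53 and Adora2a at 0.60.

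Genes related to the 8 by family or pathway were looked at in 8 lists. On knockdown 0 of the 120 listed genes had an adjusted p under 0.05 in the authors' deposited table (1 at 0.1), and on deletion 1 of 119 was called higher and 1 lower (4 at 0.1). Of all genes, 0.177% were called higher and 0.0406% lower on knockdown, and 0.732% and 0.742% on deletion. At these shares lists of this size would hold few calls, so nothing is read from the counts. The list medians ran from -0.51 to 0.30 on knockdown and from -0.60 to 1.07 on deletion. Each of the 8 genes, having been chosen as rises, lay above the median of its own list.

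The list of the CEACAM family and inhibitory leukocyte receptors had the highest medians, 0.30 on knockdown and 1.07 on deletion. Siglecg, an inhibitory sialic acid receptor of B cells, was called higher on deletion, 2.52-fold from 3571 to 9009 (adjusted p = 0.0092 in the authors' deposited table), and on knockdown its means were 2891 and 4572. Fcgr2b, the inhibitory Fc receptor, had means of 249 and 1096 on knockdown (adjusted p = 0.0599) and 505 and 2033 on deletion (adjusted p = 0.9203). Pecam1, an adhesion receptor with an inhibitory tail, had means of 725 and 1586 on deletion (adjusted p = 0.0551). Ptpn6, which encodes the phosphatase SHP-1 that such receptors recruit, had 1308 and 2308 on knockdown and 1699 and 3609 on deletion, with neither called.

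In the list of AHNAK partners, with medians of -0.08 on knockdown and 0.13 on deletion, Cacnb2, a calcium channel beta subunit, was called lower on deletion, 5.56-fold from 93.2 to 16.8 (adjusted p = 0.0061 in the authors' deposited table). S100a10, a binding partner of AHNAK, had means of 413 and 360 on knockdown. In the TGF-beta list, with medians of 0.12 and 0.20, the inhibitory Smad7 had means of 272 and 797 on knockdown (adjusted p = 1) and 537 and 1750 on deletion (adjusted p = 0.2141). Tgfbr2, the type II receptor, had 1237 and 2306 on deletion (adjusted p = 0.2086).

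Among the genes of p53 and its targets, with medians of 0.23 and 0.24, Cdkn1a, the p21 inhibitor of the cell cycle, had means of 810 and 1409 on knockdown. Gadd45a, a stress gene, had 80.3 and 130 on knockdown and 117 and 289 on deletion (adjusted p = 0.0612 in the authors' deposited table on deletion). Neither was called. The GPI anchor list stayed near 0, at medians of -0.05 and -0.03 over 26 genes. The TLDc and mTOR list had medians of 0.06 and -0.07, and Mtor itself had means of 4126 and 3093 on knockdown and 3009 and 1858 on deletion. The SynDIG relatives had -0.51 and 0.25, and the relatives of PEAR1 had 0.11 and -0.60.

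**Figure D4:**
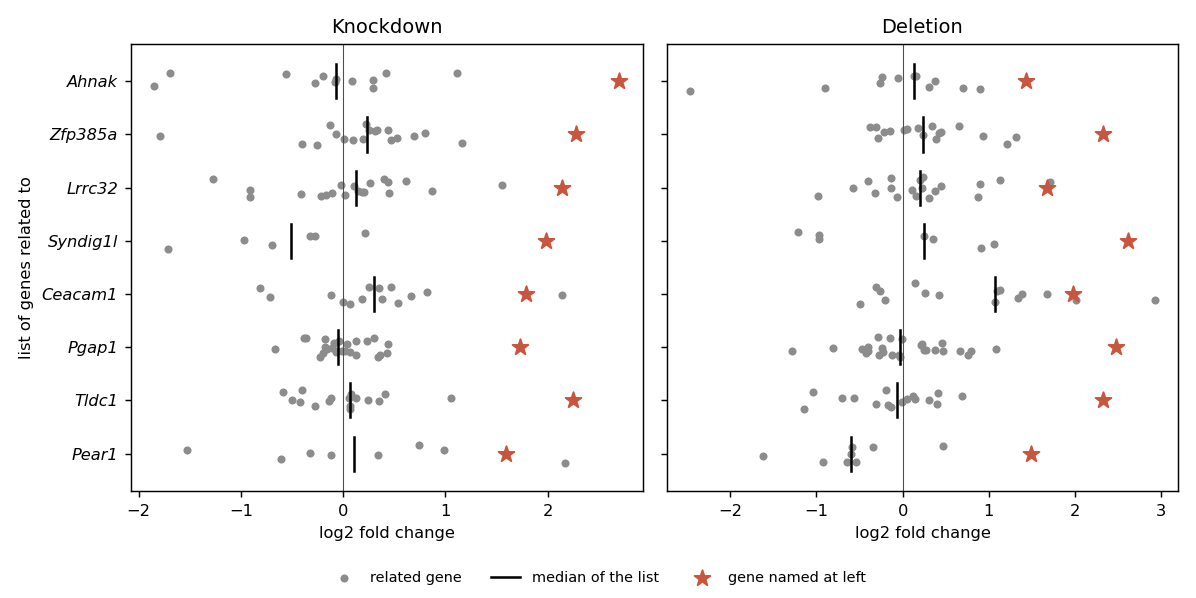
Log2 fold change (horizontal axis) on knockdown and on deletion in the authors' deposited tables of the genes related to each of the 8 (grey points, jittered vertically, black line at the list median) and of the gene itself (red star). The list medians lie between -0.51 and 0.30 on knockdown and between -0.60 and 1.07 on deletion, and the stars lie at 1.43 or more by choice.

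The 8 genes lie on 7 chromosomes, with Lrrc32 and Ceacam1 both on chromosome 7. For each experiment 16 flanking genes were taken from either side of the 8 genes, and 0 were called in the authors' deposited tables. The sets differed beside Zfp385a (Copz1 on knockdown, Gpr84 on deletion) and Ceacam1 (Atp5sl on knockdown, Ceacam2 on deletion). Ceacam2 was also listed on knockdown, at means of 3.97 and 4.17, so a flanking gene was not always the nearest listed. Of all genes, 0.177% were called higher and 0.0406% lower on knockdown, and 0.732% and 0.742% on deletion, so 0 of 16 says little. The median log2 fold change of the 16 genes of each set was 0.05 on knockdown, over a range of -0.51 to 0.70, and 0.03 on deletion, over -1.04 to 1.20. The highest on deletion was Arhgef11, a guanine nucleotide exchange factor gene beside Pear1, with an adjusted p of 0.0831. These neighbours were described after the values had been seen.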

How the data were processed

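Polyadenylated RNA of 10 libraries in 4 groups was sequenced, and per the labels' protocols dUTP marked the strand. CASAVA, RSEM and DESeq with mm10 are named by the submitters' processing notes, without versions. Each group has 1 column of the authors' mean signal, in reads normalized by library size factor. Per the file headers, the tables also give the log2 fold change, a signed linear fold score, and each p-value before and after Benjamini-Hochberg adjustment. Exon length, another deposited column, gave levels per kilobase. No value per library was listed, so calls are the authors' deposited adjusted p under 0.05.

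Deletion means were split into whole reads per library within a tolerance of 6.0e-05, with a single solution for 18562 control and 18829 Brg1-deleted values of 19404. Of the 3 libraries per knockdown group only low values could be split. Means carry no error, and unresolved values show only the group mean. As an alternative, limma 3.58.1 in R 4.3.3 was run on log2 of recovered reads plus 0.5, where a gene's mean was 1 or more. Recovery and limma were tested on simulated data. The rest used Python 3.11.15 with matplotlib 3.10.9, scipy 1.17.1, pandas 2.3.3 and numpy 2.4.6.

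The named genes are the 8 genes, Smarca4, those just inside and outside the choice, up to 3 per related list and experiment by adjusted p, the 2 nearest in both log2 fold changes, and called markers. Members and lists were chosen with earlier results of these data known. The 11 marker and 8 related lists were matched by symbol. Flanking genes, limma without each library and limma with either pairing of libraries were added after seeing the data. Of the genes that overlap Pear1, some are not reported here.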

Additional observations from a re-analysis of the deposited data

How the results depend on the processing

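On knockdown 8 of the 8 genes stayed called higher under every alternative but 1. Without genes marked confounded, which leaves out Pear1, it was 7 of 7. The genes were chosen on their calls, so these counts support nothing. On deletion the count of 2 became 1 without genes marked confounded (Pear1 carries the mark), and 0 of 6 with limma on recovered reads, which called 0 of 16867 genes, with 2836 at an unadjusted p under 0.05. There the 6 genes had log2 fold changes of 1.53 to 2.53 and limma adjusted p of 0.126 to 0.231. Leaving out 1 library at a time gave 0 to 1 genes. The 1 was Zfp385a without the shallower control (limma adjusted p = 0.0405), where 49 genes were called in all. That lone control was assumed to vary like the Brg1-deleted group. Related lists gave 1 called gene on knockdown and 4 on deletion at an adjusted p under 0.1.

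Of 88 alternative member fold changes, 86 moved by less than 1 standard error implied by the deposited p, and 0 reversed. Only 24 of them left out a library, all on deletion in the 6 genes with a single reading. Of these, 23 stayed within it. The others only added a pseudocount or rescaled the groups. That standard error is wide where the deposited p is large, so staying within it says little for such genes. Tldc1 moved to 1.62 on knockdown with a pseudocount of 10 and to 3.05 on deletion without the shallower control; the first follows from adding 10 reads to a low mean, and the cause of the second was not tested. Without 1 library at a time the log2 fold change on deletion ran over 1.65 to 3.03 in Zfp385a, 1.05 to 2.10 in Lrrc32, 1.98 to 3.06 in Syndig1l, 1.83 to 2.91 in Pgap1, 1.85 to 3.05 in Tldc1 and 1.18 to 1.89 in Pear1. No paired analysis was possible because the columns carry no replicate numbers, so that the labels give no block. Both ways of matching 2 controls with 2 Brg1-deleted libraries were fitted in limma after seeing the data. Matching deeper with deeper called 0 of the 6 genes (adjusted p of 0.346 to 0.592) and 0 genes in all, with 1446 at an unadjusted p under 0.05. Matching deeper with shallower called 6 of the 6 (adjusted p of 0.00138 to 0.0310) and 2934 genes in all. The count on deletion thus depends on a pairing that only the values, not the labels, could choose. Ahnak and Ceacam1 could not enter limma, since their Brg1-deleted means allow 2 readings. At 2 libraries a group the spread is poorly known.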

Other observations

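Single genes of the marker lists also differed between libraries of 1 group in the deletion experiment. C1qb, a macrophage complement gene, read 11.7 and 210 in the deeper and shallower control and 117 and 9.30 in the deeper and shallower Brg1-deleted library. Csf1r, the macrophage growth factor receptor, read 259, 913, 683 and 186 in the same order, and Pf4, a platelet chemokine, 26.3, 144, 151 and 31.4. S100a8, a neutrophil gene, had the opposite order, 208, 13.0, 0.864 and 134. Other genes of these lists differed less. In the library order given for C1qb, Itgam of the myeloid list read 258, 353, 290 and 249. Itga2b of the megakaryocyte and platelet list, which also holds Pf4, read 90.7, 81.1, 79.5 and 108. The 13 resolved markers of that list summed to 525, 608, 612 and 535, so Pf4 does not stand for its list. For Zfp385a, Lrrc32, Pgap1 and Tldc1 the shallower control and the deeper Brg1-deleted library were the higher of their groups. Both Brg1-deleted libraries were above both controls in these genes, and not in C1qb, Csf1r and Pf4. Whether these patterns are related was not tested.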
